A study of Mus musculus with 13 samples.

Results

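The genes described here encode nuclear subunits of the oxidative phosphorylation complexes. They were taken from the deposited table by symbol: names beginning Nduf followed by a, b, c, s or v and a digit, the 4 Sdh genes, names beginning Uqcr or Atp5, names beginning Cox with a digit of the subunit series and a letter a to c, and Cyc1 and Cycs. The rule found 76 of 21225 measured genes: 36 of complex I, 4 of complex II, 7 of complex III, 15 of complex IV, 13 of complex V (ATP synthase) and Cycs, the mobile electron carrier cytochrome c. The rule used names only and no measured value.

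The study asked how RNA in the aorta changes with age and what the mineralocorticoid receptor (MR) of smooth muscle cells contributes. Total RNA of male C57BL/6 aorta was hybridised to 13 arrays. The groups were aged SMC-MR-KO (3 arrays, 12 months), aged MR-intact (4 arrays, 12 months), young SMC-MR-KO (3 arrays, 3 to 4 months) and young MR-intact (3 arrays, 3 to 4 months). SMC-MR-KO mice lack the receptor in smooth muscle cells, and MR-intact mice are labelled as wild type. The labels name neither the driver that removes the receptor nor the animal behind each array, so the p-values rest on a spread between arrays that may be technical. The title letter is the same for all aged and another for all young arrays, and what it marks cannot be told apart from age. Each title also holds a middle number of its own, and the labels do not say what that number marks. Values are log2 signals from the deposited table, a difference of 1 is a 2-fold change, and signals of different genes on an array are not compared with each other.

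Oxidative phosphorylation passes electrons from NADH through complex I, and from succinate through complex II, to complex III, cytochrome c and complex IV, and the proton gradient that this builds drives ATP synthase. Complexes I, III, IV and V also hold subunits encoded by mitochondrial DNA, which were not analysed here. Complex IV has tissue isoforms: striated muscle and brown fat carry Cox6a2, Cox7a1 and Cox8b, whereas Cox6a1, Cox7a2 and Cox8a are the forms found in most other tissues. The tunica media of the aorta is smooth muscle, and the thoracic aorta is wrapped in brown-like perivascular fat.

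The tissue label was checked on its markers. The smooth muscle genes Acta2, Myh11 and Tagln lay between 12.36 and 13.03, 11.27 and 12.15, and 10.73 and 11.76 over the 13 arrays, with the lowest value of each on aged SMC-MR-KO replicate 2. The brown adipocyte gene Ucp1, which uncouples respiration from ATP synthesis, lay between 12.32 and 12.75, and the brown adipocyte marker Cidea between 11.05 and 11.60. The mean of 12 brown adipocyte markers ran from 9.15 to 9.84 over the arrays. In such bulk tissue fewer cells of a type and less RNA per cell cannot be told apart. Nr3c2, the gene of the deleted receptor, read 6.14, 6.22 and 6.58 in aged SMC-MR-KO and 7.12, 6.86, 6.80 and 7.24 in aged MR-intact aorta, and 6.26, 6.09 and 6.42 in young SMC-MR-KO and 6.68, 6.62 and 6.69 in young MR-intact aorta. Knockout arrays lay below the MR-intact arrays at each age without overlap. Before the results, 2 arrays need naming. The mean of 10 B lymphocyte and plasma cell markers was 8.70 on aged SMC-MR-KO replicate 1 against 4.90 to 6.75 on the other 12 arrays, and the mean of 10 smooth muscle markers was 9.61 on aged SMC-MR-KO replicate 2 against 10.33 to 10.73 on the others. Replicate 2 also had the highest mean of 10 liver markers, 6.66 against 4.74 to 5.55 on the others. The same held for 10 Schwann and neuronal markers, at 6.79 against 5.64 to 6.43. The medians over all members, and the member most affected (Ndufb2), are given with and without these 2 arrays.

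The complex IV isoforms are the members with the clearest division of labour between tissues, so their promoters are shown first. Each line runs 5′ to 3′ on the gene's own strand over 300 bases, 250 before and 50 after the annotated start, as RefSeq gives them on build GRCm38.p6. Capitals mark matches to any of 8 short motifs on either strand. The muscle-type genes are Cox7a1 (chr7:30183921-30184220, plus strand) and Cox8b (chr7:140900397-140900696, minus strand).
Cox7a1: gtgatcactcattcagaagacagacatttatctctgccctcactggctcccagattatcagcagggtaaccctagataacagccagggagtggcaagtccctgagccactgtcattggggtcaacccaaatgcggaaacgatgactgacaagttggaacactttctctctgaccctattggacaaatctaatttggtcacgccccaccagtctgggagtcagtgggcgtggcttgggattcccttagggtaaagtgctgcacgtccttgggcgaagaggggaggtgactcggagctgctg
Cox8b: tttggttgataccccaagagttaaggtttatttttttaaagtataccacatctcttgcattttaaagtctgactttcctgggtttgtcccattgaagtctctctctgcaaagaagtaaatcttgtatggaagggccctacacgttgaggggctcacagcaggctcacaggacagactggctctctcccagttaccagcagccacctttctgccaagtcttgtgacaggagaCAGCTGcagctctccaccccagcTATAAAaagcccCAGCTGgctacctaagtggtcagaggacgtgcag
Their ubiquitous counterparts are Cox7a2 (chr9:79759804-79760103, minus strand) and Cox8a (chr19:7217567-7217866, minus strand), and Cox6a1 (chr5:115348909-115349208, minus strand) is the counterpart of Cox6a2.
Cox7a2: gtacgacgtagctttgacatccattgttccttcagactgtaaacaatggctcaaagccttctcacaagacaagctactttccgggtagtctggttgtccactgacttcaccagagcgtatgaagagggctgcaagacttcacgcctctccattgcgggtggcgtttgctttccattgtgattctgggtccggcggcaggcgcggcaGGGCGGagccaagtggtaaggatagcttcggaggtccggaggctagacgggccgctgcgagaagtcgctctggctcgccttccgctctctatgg
Cox8a: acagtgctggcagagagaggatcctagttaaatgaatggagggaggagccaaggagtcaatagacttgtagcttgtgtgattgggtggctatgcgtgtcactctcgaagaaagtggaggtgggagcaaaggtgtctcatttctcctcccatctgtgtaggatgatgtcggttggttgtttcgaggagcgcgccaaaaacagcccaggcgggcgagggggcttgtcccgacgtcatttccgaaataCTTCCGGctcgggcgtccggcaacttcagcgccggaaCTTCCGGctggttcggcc
Cox6a1: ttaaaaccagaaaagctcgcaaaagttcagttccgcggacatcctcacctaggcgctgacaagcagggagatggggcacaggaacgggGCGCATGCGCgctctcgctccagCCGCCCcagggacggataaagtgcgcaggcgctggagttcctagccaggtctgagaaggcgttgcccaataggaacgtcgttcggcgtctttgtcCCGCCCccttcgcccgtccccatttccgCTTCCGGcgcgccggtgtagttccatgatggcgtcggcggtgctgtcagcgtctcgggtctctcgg

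The window of Cox8b held TATAAA 5 bases after the start and the E-box CAGCTG with its first base 19 bases before and 17 bases after it. The window of Cox7a1 held none of the 8 motifs. Cox7a2 held 1 GC box, GGGCGG, 44 bases before the start, and Cox8a held the GABP/ETS-type word CCGGAAG on the opposite strand 5 bases before and 33 bases after the start. Cox6a1 held the NRF1-type word GCGCATGCG on both strands in overlapping positions, 162 and 161 bases before the start, with 2 GC boxes and 1 GABP/ETS-type word closer in. NRF1 and GABP are textbook activators of nuclear respiratory genes, but a match is a description of these letters and not a binding site.

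Over all members, 63 of 76 had a promoter window. The NRF1-type word GCGCATGCG was in 6 of them (9.52%), against 2.79% of the 15890 array genes with a window. The GABP/ETS-type CCGGAAG was in 13 (20.6% against 13.5%), the YY1-type AAGATGG in 11 (17.5% against 7.35%), the oestrogen-related receptor word AAGGTCA in 6 (9.52% against 4.51%) and the cAMP response element TGACGTCA in 5 (7.94% against 2.69%). The GC box GGGCGG was in 27 (42.9% against 52.7%), TATAAA in 6 (9.52% against 13.9%) and CAGCTG in 6 (9.52% against 18.4%). Both strands were searched, members with more than 1 window counted once, and the motifs, textbook words for respiratory and muscle genes, were chosen after the expression values were seen.

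The members shared much of their variation from array to array. The mean log2 value over the 76 genes was 9.75, 10.02 and 10.02 on the aged SMC-MR-KO arrays, 9.65, 9.94, 9.78 and 9.76 on the aged MR-intact arrays, 9.71, 9.79 and 9.78 on the young SMC-MR-KO arrays and 9.88, 9.88 and 9.83 on the young MR-intact arrays. The 2 highest arrays were aged SMC-MR-KO replicates 2 and 3, and the lowest was aged MR-intact replicate 1. Replicates 1 of both aged groups were low across the board: 69 of 76 members had their lowest aged SMC-MR-KO value on replicate 1, where 31.9% of all genes did, and 60 of 76 had their lowest aged MR-intact value on replicate 1, where 24.5% of all genes did. In aged MR-intact aorta replicate 2 held the highest value of 62 members, against 35.8% of all genes. The group means were 9.93 ± 0.16 in aged SMC-MR-KO (SD, n = 3), 9.78 ± 0.12 in aged MR-intact (SD, n = 4), 9.76 ± 0.04 in young SMC-MR-KO (SD, n = 3) and 9.86 ± 0.03 in young MR-intact aorta (SD, n = 3). The aged groups overlapped and spread more widely than the young groups, which did not overlap each other.

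**Figure D1:**
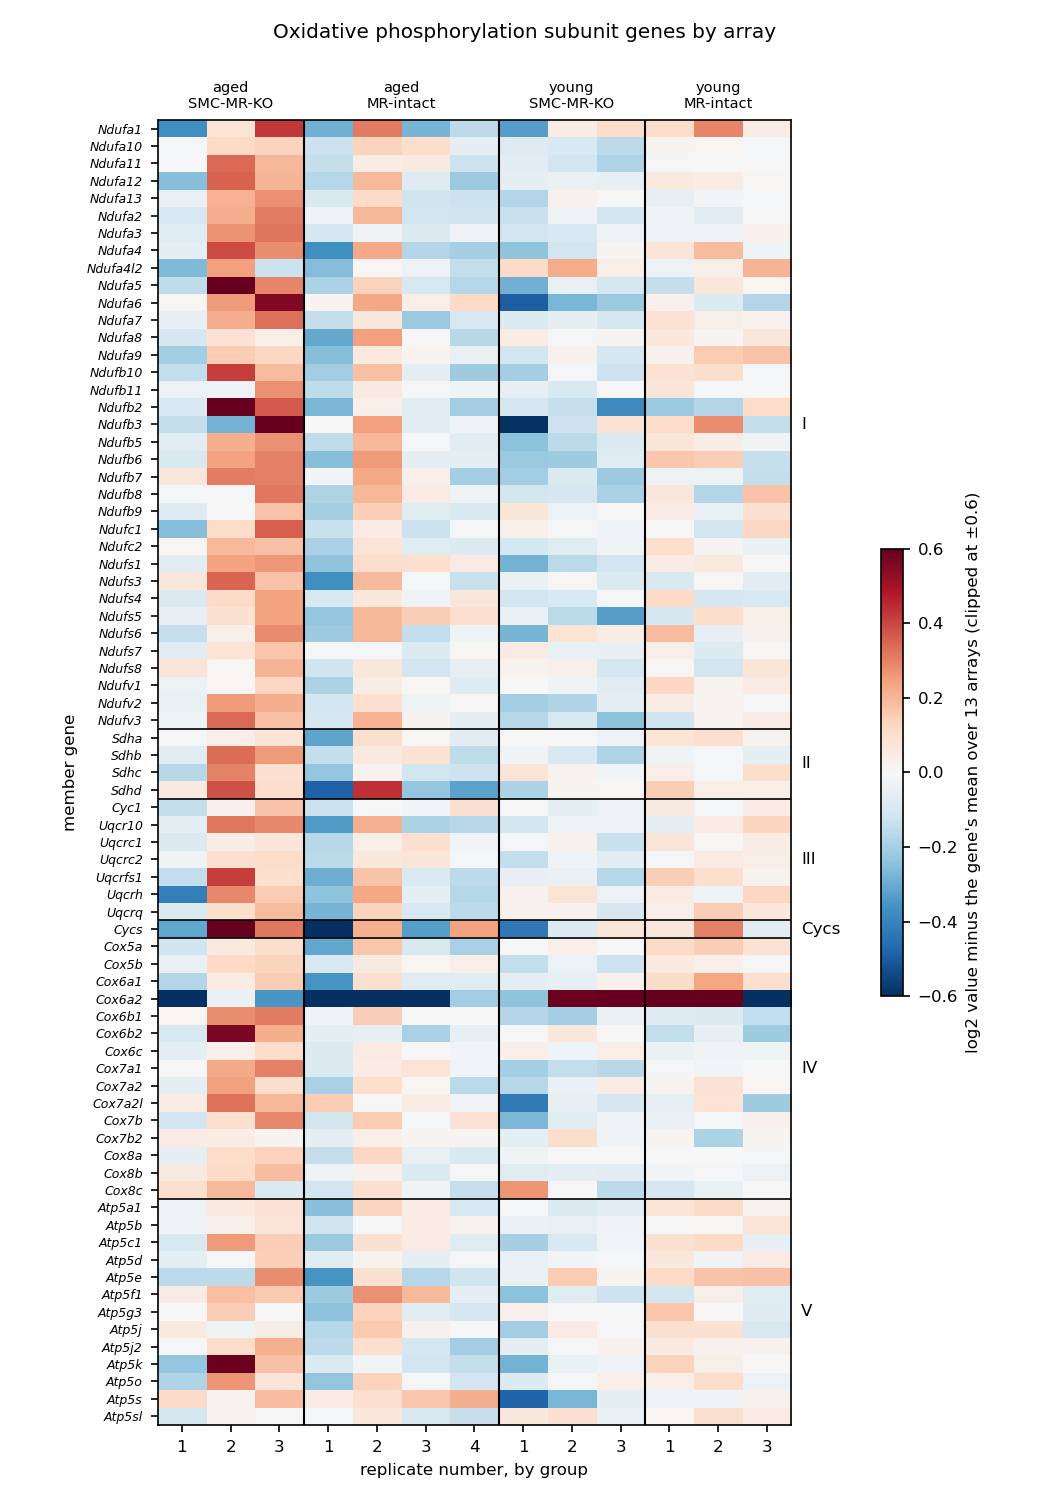
Log2 value of 75 of the 76 genes (rows, by complex) on each of the 13 arrays (columns, by group and replicate), as the difference from the gene's mean over all arrays and clipped at 0.6 in either direction. Aged SMC-MR-KO replicates 2 and 3 and aged MR-intact replicate 2 are red over most rows, and aged MR-intact replicate 1 is blue. Cox6a2 has a pattern of its own.

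Single members were for the most part steady. The median SD of a member over the 13 arrays was 0.14, equal to the 0.14 of all genes. The steadiest of each complex were Cox6c (SD 0.05), a structural subunit of complex IV, Atp5b (SD 0.05), the catalytic beta subunit of ATP synthase, Ndufs7 (SD 0.07), an iron-sulfur subunit of complex I, Uqcrc1 (SD 0.08), a core protein of complex III, and Sdha (SD 0.11), the flavoprotein of complex II. The most variable of each complex were Cox6a2 (SD 0.95), Ndufb2 (SD 0.39), an accessory subunit of complex I, Sdhd (SD 0.26), a membrane anchor of complex II, Atp5k (SD 0.22), a membrane subunit of ATP synthase, and Uqcrh (SD 0.19), the hinge protein of complex III. Cycs had an SD of 0.38, larger than that of any member of complexes II, III and V. The signals of Cox6c (12.46 to 12.65) and Atp5b (12.34 to 12.54) lay close to the array maximum of 13.08 to 13.25. Those of Cycs were low, at 4.44 to 5.85, and lay under the median of all genes (5.85 to 5.97) on each array. What part the signal level has in these SDs was not tested.

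**Figure D2:**
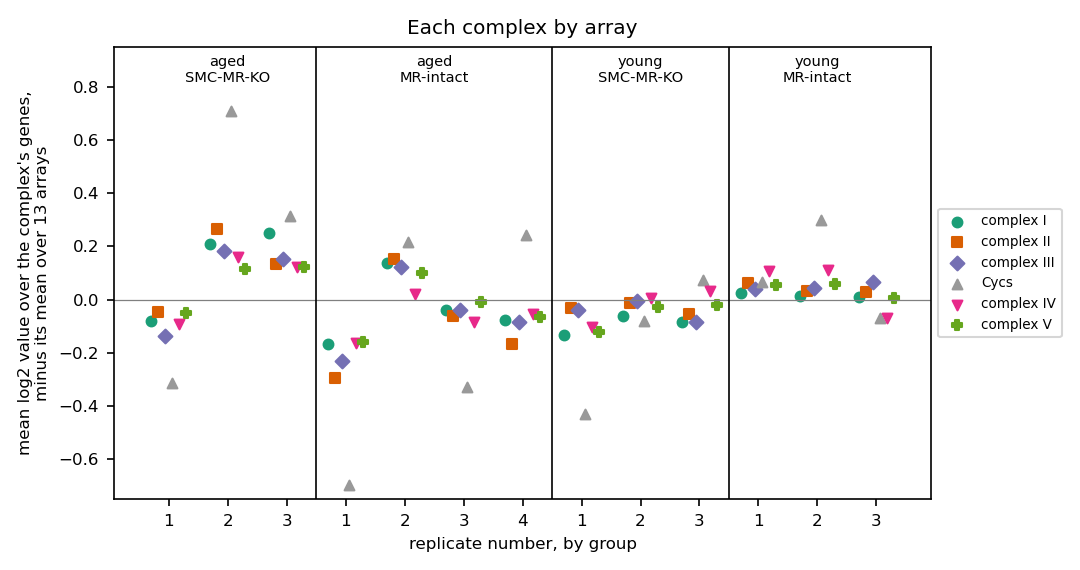
Mean log2 value over the genes of each complex on each array, as the difference from its own mean over the 13 arrays; Cycs is a single gene. The complexes move together within an array, and complex II spans the widest range of the 5, from aged MR-intact replicate 1 at the bottom to aged SMC-MR-KO replicate 2 at the top.

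The complexes moved alike. Complex I averaged 9.65, 9.94 and 9.98 on the aged SMC-MR-KO arrays, 9.57, 9.87, 9.69 and 9.66 on the aged MR-intact arrays, 9.60, 9.67 and 9.65 on the young SMC-MR-KO arrays and 9.76, 9.75 and 9.74 on the young MR-intact arrays. All 3 young SMC-MR-KO arrays lay below all 3 young MR-intact arrays, while the aged groups overlapped. Complex II averaged 11.02, 11.33 and 11.20 in aged SMC-MR-KO, 10.77, 11.22, 11.00 and 10.90 in aged MR-intact, 11.03, 11.05 and 11.01 in young SMC-MR-KO and 11.12, 11.09 and 11.09 in young MR-intact aorta. Complexes III and V likewise had all young SMC-MR-KO means below all young MR-intact means, at 10.74 to 10.82 against 10.86 to 10.89 for complex III and 9.85 to 9.95 against 9.98 to 10.03 for complex V. In complex IV these arrays overlapped, at 9.35 to 9.49 in young SMC-MR-KO against 9.39 to 9.57 in young MR-intact aorta. Cox6a2, 1 of its 15 genes, was low on 1 of the young MR-intact arrays.

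The first comparison asks what age does to these genes when the receptor is removed from smooth muscle. Most members lay higher in aged than in young SMC-MR-KO aorta, and none of the 76 passed the test (limma, adjusted p under 0.05 over all genes), which 0.735% of all genes did. The median difference of the members was 0.17, or 1.12-fold, against 0.00 for all genes, and 70 of 76 differences were positive, against 51.2% of all genes. At an unadjusted p under 0.05, 23 members were higher (9.07% of all genes were) and none was lower (6.76% of all genes were). In 21 members every aged array lay above every young array, as in 8% of all genes, and in none did the aged arrays all lie below, as in 8.38% of all genes. The members share the same 6 arrays, so these counts are not 76 separate observations.

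By complex the median difference was 0.23 for complex I, 0.14 for complex II, 0.09 for complex III, 0.15 for complex IV and 0.08 for complex V. Complex I supplied 13 of the 21 members with arrays that did not overlap, complex IV 4, complex V 2, and complexes II and III 1 each. The 7 catalytic core subunits of complex I had a median of 0.13, below the 0.23 of the whole complex.

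Ndufa6, an accessory subunit of complex I, came nearest to the threshold. It read 10.12, 10.37 and 10.67 on the aged SMC-MR-KO arrays and 9.62, 9.84 and 9.89 on the young SMC-MR-KO arrays, so the groups did not overlap. The difference was 0.60 ± 0.13 (SE), or 1.52-fold, with adjusted p = 0.0505 (limma). In MR-intact aorta the same gene read 10.13, 10.35, 10.15 and 10.23 at 12 months and 10.14, 10.03 and 9.94 at 3 to 4 months, a difference of 0.18 ± 0.12 (adjusted p = 0.761, limma). The 3 young SMC-MR-KO arrays lay below all other arrays of the series.

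Ndufb2 had the largest difference, which rested in part on aged SMC-MR-KO replicate 2. The aged SMC-MR-KO arrays read 6.78, 8.02 and 7.24 and the young SMC-MR-KO arrays 6.77, 6.73 and 6.49, a difference of 0.68 ± 0.23 (SE, adjusted p = 0.177, limma). Without replicate 2 the difference was 0.34, and without replicate 1 it was 0.97 and passed (adjusted p = 0.0396, limma). Only replicates 2 and 3 stood above the 6.60 to 6.98 of all MR-intact arrays. Ndufa5 (0.42 ± 0.17, adjusted p = 0.244) and Ndufb7 (0.40 ± 0.10, adjusted p = 0.100), accessory subunits of complex I as well, followed in the limma fit. Ndufb7 read 9.09, 9.33 and 9.33 in aged SMC-MR-KO and 8.82, 8.94 and 8.80 in young SMC-MR-KO aorta, without overlap.

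In complex IV Cox7a2l, which takes part in joining complexes III and IV, read 6.90, 7.18 and 7.05 in aged and 6.43, 6.81 and 6.76 in young SMC-MR-KO aorta (0.38 ± 0.11 SE, adjusted p = 0.128, limma). Cox6b1, which bridges the monomers of complex IV, read 11.60, 11.87 and 11.90 in aged and 11.41, 11.38 and 11.54 in young SMC-MR-KO aorta (0.34 ± 0.09 SE, adjusted p = 0.0967, limma). Neither pair of groups overlapped. The lowest differences belonged to Cox6a2 (-0.92), Ndufa4l2, a paralogue of Ndufa4 (-0.18 ± 0.12, adjusted p = 0.544, limma), Atp5sl (-0.07) and the ATP synthase gene Atp5e (-0.05). Atp5sl and Atp5s carry the RefSeq names Dmac2 and Dmac2l. Neither is a core subunit of ATP synthase, and both are counted with complex V by their deposited symbol only.

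The median stayed positive when aged SMC-MR-KO arrays were left out. Without replicate 1 the median was 0.25 and 7 members passed, all higher. Without replicate 2 the median was 0.13, without replicate 3 it was 0.11 with 1 member past the threshold, and without replicates 1 and 2 it was 0.24 with 1 member past it, the lone array then being assumed to vary like the other groups. Leaving out young SMC-MR-KO replicate 3 also let 1 member pass. The B lymphocyte and plasma cell mean ran from 6.74 to 8.70 in aged SMC-MR-KO and from 4.97 to 6.37 in young SMC-MR-KO aorta, and the brown adipocyte mean from 9.37 to 9.84 in aged and from 9.31 to 9.46 in young SMC-MR-KO aorta. With the brown adipocyte mean as a covariate the median was 0.09 with 55 positive differences, and with the B lymphocyte and plasma cell mean it was 0.33 with 75. After centring each array on its median it was 0.12 with 59 positive. Which of these accounts for how much of the difference was not tested.

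**Figure D3:**
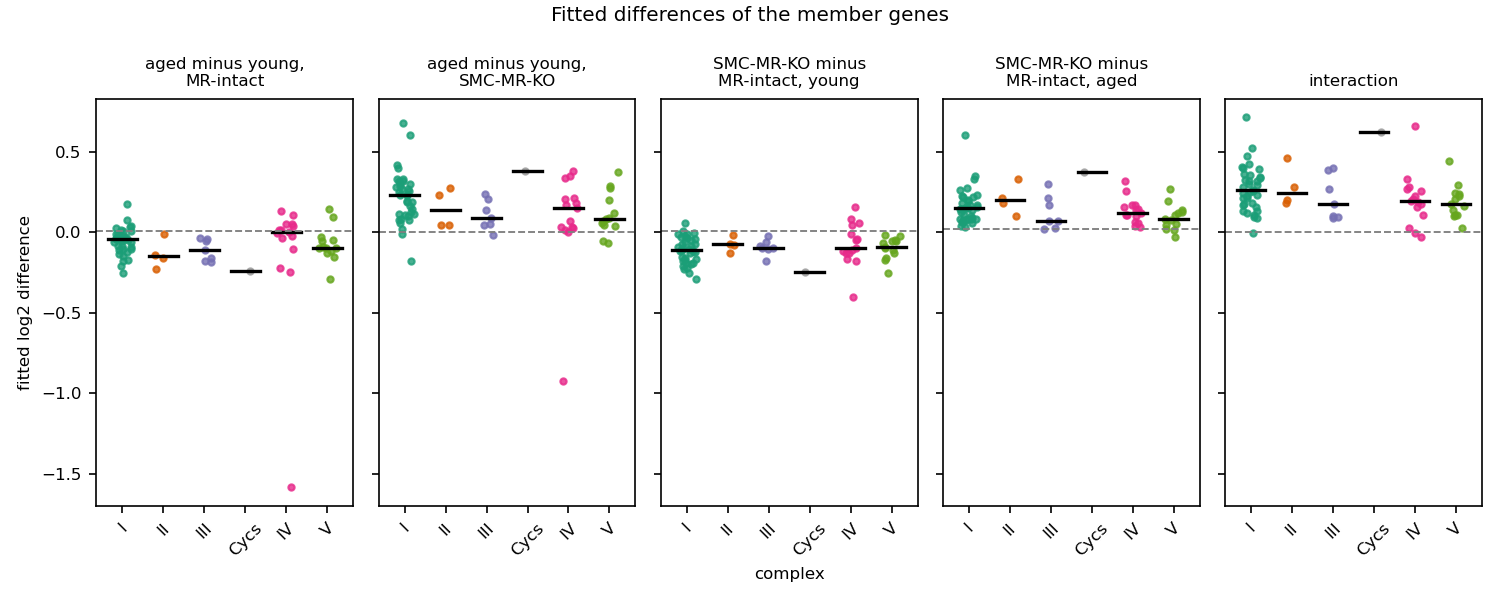
Fitted log2 difference of each member (points) by complex, for the 5 contrasts, with the median of each complex as a bar and the median of all genes as a dashed line. Points lie mostly above 0 for aged against young SMC-MR-KO aorta, for SMC-MR-KO against MR-intact aorta in aged mice and for the interaction, and mostly below 0 for SMC-MR-KO against MR-intact aorta in young mice.

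With the receptor intact, the members differed little with age. The median difference, aged minus young MR-intact, was -0.05 (0.965-fold) against 0.01 for all genes, and 58 of 76 differences were negative, against 47.7% of all genes. None passed the test (limma, adjusted p under 0.05), which 0.236% of all genes did. At an unadjusted p under 0.05, 4 members were lower (4.14% of all genes were) and none was higher (4.49% of all genes were), and in 3 members every aged array lay below every young array, as in 4.8% of all genes. In 2 members, Cox6b1 and Atp5s, every aged array lay above, as in 6.05% of all genes. The median was -0.02 with 48 negative differences without aged MR-intact replicate 1, -0.09 with 66 negative without aged MR-intact replicate 2, and -0.02 with 44 negative with the brown adipocyte mean as a covariate. By complex the medians were -0.04 for complex I, -0.15 for complex II, -0.11 for complex III, 0.00 for complex IV and -0.09 for complex V.

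The members with the lowest differences in MR-intact aorta were Cox6a2 (-1.58 ± 0.50 SE, adjusted p = 0.344, limma), Atp5e, the epsilon subunit of ATP synthase (-0.29 ± 0.12), Ndufa1, an accessory subunit of complex I (-0.25 ± 0.19), and Cox6a1 (-0.25 ± 0.10). Cox6a1 read 10.83, 11.28, 11.12 and 11.12 on the aged MR-intact arrays and 11.29, 11.42 and 11.29 on the young MR-intact arrays, which did not overlap. Atp5e read 8.62, 9.07, 8.80 and 8.85 on the aged and 9.09, 9.15 and 9.15 on the young MR-intact arrays, also without overlap. The highest were Ndufa6 (0.18), Atp5s (0.14), Cox6b1 (0.13) and Cox7a2l (0.11), of which none passed.

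The second question is what the deletion does at each age. In young aorta most members lay slightly lower in SMC-MR-KO than in MR-intact mice. The median difference was -0.10 (0.934-fold) against 0.01 for all genes, and 70 of 76 differences were negative, against 45.4% of all genes. None passed the test (limma, 0% of all genes passed), and at an unadjusted p under 0.05 only Atp5s was lower (0.829% of all genes were) and none was higher (1.76% of all genes were). In 24 members every young SMC-MR-KO array lay below every young MR-intact array, as in 4.06% of all genes, and in 1, Cox6b2, every one lay above, as in 5.43% of all genes. The 24 were 10 of complex I, 2 of complex II, 3 of complex III, 5 of complex IV and 4 of complex V. They share 6 arrays, and their differences were small: the complex medians lay between -0.11 and -0.07. With the brown adipocyte mean as a covariate the median over all members was -0.06, with 61 differences negative. After repeating quantile normalization it was -0.07 with 62 negative, and after centring each array on its median -0.12 with 71.

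Atp5s read 6.23, 6.44 and 6.66 on the young SMC-MR-KO arrays and 6.68, 6.68 and 6.73 on the young MR-intact arrays, a difference of -0.26 ± 0.10 (SE, unadjusted p = 0.0217, adjusted p = 1, limma). Cox6a2 (-0.40 ± 0.53) and Ndufb3, an accessory subunit of complex I (-0.29 ± 0.23), had lower values of the difference with overlapping arrays, and Ndufa6 had -0.25 ± 0.13 without overlap. The highest differences were those of the testis-type complex IV isoforms Cox6b2 (0.16), Cox8c (0.08) and Cox7b2 (0.06), and of Ndufa4l2 (0.06). The testis-type genes had low signals, with Cox7b2 between 2.59 and 2.89 and Cox8c between 4.63 and 5.05.

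In aged aorta the sign was the other way. The median difference, SMC-MR-KO minus MR-intact, was 0.13 (1.10-fold) against 0.02 for all genes, and 75 of 76 differences were positive, against 56.4% of all genes. None passed the test (limma, 0.0565% of all genes passed). At an unadjusted p under 0.05, 16 members were higher (8.58% of all genes were) and none was lower (9.06% of all genes were). Only 1 member, Cox8b, had every SMC-MR-KO array above every MR-intact array, and 5.25% of all genes did, while none had every array below, as 5.11% of all genes did, so the arrays of the other 75 members overlapped. The complex medians were 0.15 for complex I, 0.20 for complex II, 0.07 for complex III, 0.12 for complex IV and 0.08 for complex V.

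Marker lists of other cells differed in the same comparison. The median difference was 2.12 over 10 B lymphocyte and plasma cell markers, whose arrays did not overlap for all 10, and 0.92 over 10 T lymphocyte markers, of which 6 did not overlap. It was -0.45 over 10 smooth muscle markers, with 9 lower at an unadjusted p under 0.05, and -0.27 over 10 fibroblast markers, with 6 lower. The brown adipocyte median was 0.18 over 12 markers. No marker of these 5 lists passed (limma), and their part in the subunits' difference was not tested.

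Ndufb2 (0.60 ± 0.22 SE, adjusted p = 0.177, limma) had the largest difference in aged aorta, and without aged SMC-MR-KO replicate 2 it was 0.27. The next were Cycs (0.38 ± 0.26), Ndufa5 (0.35 ± 0.16) and Ndufa4 (0.33 ± 0.14), a protein first placed in complex I and since assigned to complex IV. Ndufa4 read 10.85, 11.30 and 11.19 on the aged SMC-MR-KO arrays and 10.54, 11.14, 10.74 and 10.71 on the aged MR-intact arrays, so that replicate 2 of the MR-intact mice reached the SMC-MR-KO range. Atp5s, at -0.03, was the 1 member with a negative value. Without aged SMC-MR-KO replicate 1 the median was 0.22 and 1 member passed, without replicate 2 it was 0.09, without replicate 3 it was 0.08 with 61 positive, and without replicates 1 and 2 it was 0.24. With the brown adipocyte mean as a covariate it was 0.03, with 51 differences positive. After centring each array on its median it was 0.09 with 66 positive, against -0.03 for all genes.

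The interaction asks whether aging differed between the genotypes. Its median over the members was 0.23 (1.17-fold) against 0.00 for all genes, and 73 of 76 values were positive, against 51.2% of all genes. None passed the test (limma, smallest adjusted p = 0.609), and 0% of all genes did. At an unadjusted p under 0.05, 15 members were higher (3.59% of all genes were) and none was lower (4.53% of all genes were). The complex medians were 0.26 for complex I, 0.24 for complex II, 0.18 for complexes III and V, and 0.20 for complex IV. The largest values were Ndufb2 (0.72 ± 0.32 SE), Cox6a2 (0.66 ± 0.73), Cycs (0.62 ± 0.38) and Ndufa4 (0.52 ± 0.20), and the only negative ones were Cox7b2 (-0.03), Cox6c (-0.01) and Ndufa4l2 (-0.00). Without aged SMC-MR-KO replicate 1 the median was 0.31, without replicate 2 it was 0.20 and without both it was 0.34, and Ndufb2 without replicate 2 gave 0.38. With the brown adipocyte mean as a covariate the median was 0.11, with 65 values positive. The interaction and the comparisons above use the same arrays and are not independent of each other.

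Among the 7 catalytic core subunits of complex I, which bind the flavin and the iron-sulfur clusters, Ndufs1 carried the largest aged against young difference in SMC-MR-KO aorta. It read 10.08, 10.38 and 10.41 on the aged SMC-MR-KO arrays, 9.90, 10.25, 10.25 and 10.20 on the aged MR-intact arrays, 9.86, 9.98 and 10.03 on the young SMC-MR-KO arrays and 10.19, 10.20 and 10.15 on the young MR-intact arrays. The difference between aged and young SMC-MR-KO aorta was 0.33 ± 0.11 (SE, adjusted p = 0.160, limma) without overlap, and that between SMC-MR-KO and MR-intact aorta was -0.22 ± 0.11 in young mice, again without overlap. Ndufv2 gave 0.29 ± 0.09 and -0.17 ± 0.09 for the same differences. Ndufs7 and Ndufs8 gave 0.08 and 0.11 with age in SMC-MR-KO aorta.

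Complex II, which is also the succinate dehydrogenase of the citric acid cycle, has all 4 subunits encoded in the nucleus. The catalytic flavoprotein Sdha read 11.77, 11.82 and 11.86 in aged SMC-MR-KO, 11.46, 11.88, 11.79 and 11.71 in aged MR-intact, 11.79, 11.78 and 11.75 in young SMC-MR-KO and 11.87, 11.88 and 11.80 in young MR-intact aorta. The iron-sulfur subunit Sdhb read 10.91, 11.30 and 11.23 in aged SMC-MR-KO, 10.83, 11.03, 11.06 and 10.82 in aged MR-intact, 10.95, 10.88 and 10.79 in young SMC-MR-KO and 10.95, 10.96 and 10.92 in young MR-intact aorta. The membrane anchor Sdhc read 10.82, 11.28 and 11.07 in aged SMC-MR-KO, 10.75, 11.00, 10.87 and 10.86 in aged MR-intact, 11.06, 11.00 and 10.97 in young SMC-MR-KO and 11.02, 10.98 and 11.09 in young MR-intact aorta. Sdha and Sdhc had their lowest value of the series on aged MR-intact replicate 1, where Sdhb was close to its lowest.

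The second anchor, Sdhd, spread most. It read 10.57, 10.90 and 10.62 in aged SMC-MR-KO, 10.03, 10.95, 10.28 and 10.20 in aged MR-intact, 10.33, 10.53 and 10.52 in young SMC-MR-KO and 10.66, 10.56 and 10.55 in young MR-intact aorta. The aged MR-intact group alone held both the highest and the lowest value of the series. The SMC-MR-KO minus MR-intact difference in aged aorta was 0.33 ± 0.17 (SE, adjusted p = 0.349, limma) for Sdhd, 0.21 for Sdhb, 0.19 for Sdhc and 0.11 for Sdha, all positive and none past the threshold.

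In complex III Uqcrfs1, the Rieske iron-sulfur protein, read 8.49, 9.06 and 8.74 in aged SMC-MR-KO, 8.35, 8.81, 8.56 and 8.49 in aged MR-intact, 8.60, 8.60 and 8.47 in young SMC-MR-KO and 8.79, 8.74 and 8.67 in young MR-intact aorta. The young groups did not overlap (-0.18 ± 0.14, SE, adjusted p = 1, limma), and the aged groups did. The other catalytic subunit encoded in the nucleus, Cyc1 (cytochrome c1), differed by 0.05 with age in SMC-MR-KO aorta and by 0.03 with the deletion in aged aorta. Cycs read 4.83, 5.85 and 5.45 in aged SMC-MR-KO, 4.44, 5.35, 4.81 and 5.38 in aged MR-intact, 4.71, 5.06 and 5.21 in young SMC-MR-KO and 5.20, 5.44 and 5.07 in young MR-intact aorta, with overlap between all groups. Cyct, the testis form of cytochrome c, which the name rule leaves out, lay between 2.21 and 2.44.

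The muscle-type isoforms of complex IV did not share a pattern. Cox6a2 read 5.95, 6.84 and 6.53 in aged SMC-MR-KO, 5.94, 6.16, 5.94 and 6.67 in aged MR-intact, 6.64, 7.46 and 7.98 in young SMC-MR-KO and 8.67, 8.39 and 6.23 in young MR-intact aorta. Young MR-intact replicate 3 lay inside the aged range and the other 2 young MR-intact arrays lay above every other array. The aged minus young difference was -0.92 ± 0.53 in SMC-MR-KO aorta (SE, 0.527-fold, adjusted p = 0.451, limma) and -1.58 ± 0.50 in MR-intact aorta (SE, 0.333-fold, adjusted p = 0.344, limma). Without young MR-intact replicate 3 the MR-intact comparison gave -2.35 with adjusted p = 0.0113 (limma). With the mean of 18 skeletal muscle markers as a covariate no member passed in that comparison. The smallest adjusted p of any member was then 0.775 (limma).

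Cox6a2 and the mean of 18 skeletal muscle markers were both high on 2 of the young MR-intact arrays. The skeletal mean was 4.82, 5.57 and 5.02 in aged SMC-MR-KO, 4.78, 4.97, 4.77 and 5.71 in aged MR-intact, 5.50, 5.39 and 7.22 in young SMC-MR-KO and 7.70, 7.05 and 5.03 in young MR-intact aorta. The mean of 12 cardiac muscle markers was 5.65, 5.71 and 6.19 in aged SMC-MR-KO, 6.00, 5.66, 5.92 and 5.70 in aged MR-intact, 6.04, 7.22 and 6.72 in young SMC-MR-KO and 8.18, 7.89 and 5.92 in young MR-intact aorta. On young SMC-MR-KO replicate 2 the skeletal mean was the lowest and the cardiac mean the highest of that group. Within groups, Cox6a2 changed by 0.80 ± 0.11 log2 units per unit of the skeletal mean (SE, adjusted p = 0.0163, limma). It was the only member called on that slope, with 0.0802% of all genes called higher, and without young MR-intact replicate 1 or 3 no member was. The median slope of the members was 0.01, against -0.01 for all genes. No slope was fitted on the cardiac mean, so a link particular to skeletal muscle was not tested.

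Cox7a1 and Cox8b, whose promoters are printed above, followed a different course. Cox7a1 read 11.81, 12.03 and 12.11 in aged SMC-MR-KO, 11.72, 11.85, 11.89 and 11.79 in aged MR-intact, 11.60, 11.66 and 11.64 in young SMC-MR-KO and 11.79, 11.79 and 11.81 in young MR-intact aorta. The young SMC-MR-KO arrays lay below all others. The aged minus young difference was 0.35 ± 0.08 in SMC-MR-KO aorta (SE, 1.27-fold, adjusted p = 0.0684, limma) and 0.02 ± 0.08 in MR-intact aorta. Cox8b read 12.60, 12.66 and 12.73 in aged SMC-MR-KO, against 12.51, 12.57, 12.46 and 12.54 in aged MR-intact aorta, and 12.47, 12.49 and 12.48 in young SMC-MR-KO against 12.53, 12.54 and 12.51 in young MR-intact aorta. Neither age group overlapped between genotypes, with the deletion's difference at 0.14 ± 0.06 in aged and -0.05 ± 0.06 in young mice (SE). The interaction for Cox8b was 0.19 ± 0.08 with adjusted p = 0.609 (limma), and its signals lay close to the array maximum of 13.08 to 13.25.

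**Figure D4:**
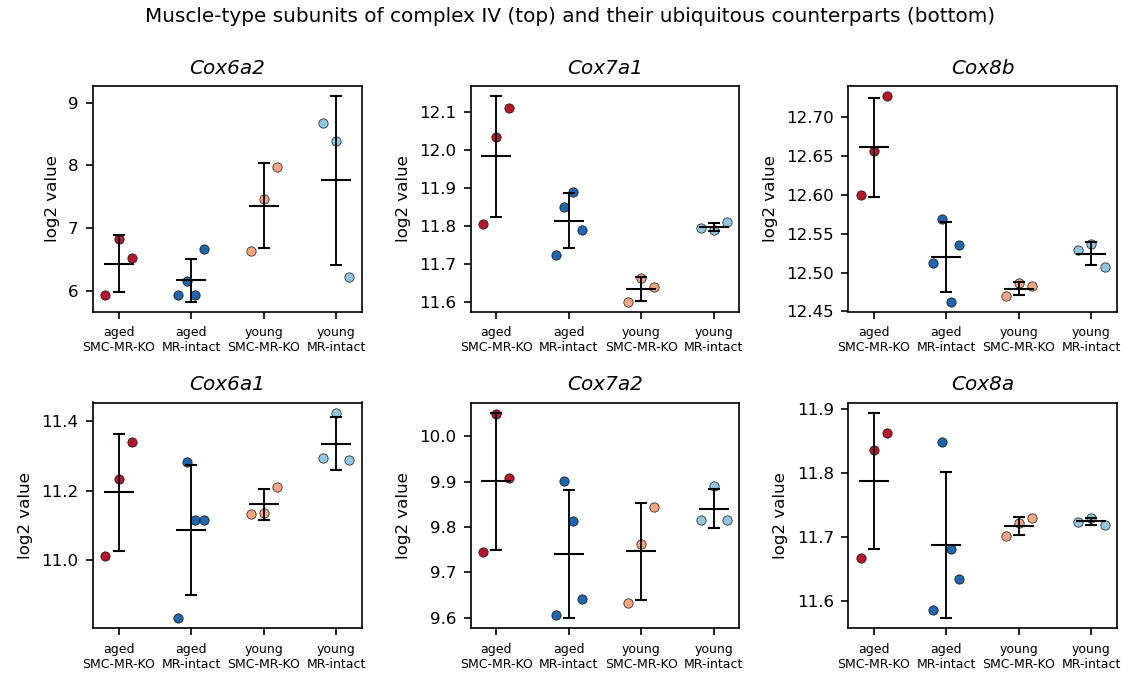
Log2 value on every array (points) of the muscle-type isoforms Cox6a2, Cox7a1 and Cox8b and of their ubiquitous counterparts Cox6a1, Cox7a2 and Cox8a, with the group mean and SD as bars and an axis of its own for each gene. Cox6a2 spans over 2 units with young MR-intact replicate 3 among the aged arrays, while the other 5 genes each stay within 1 unit.

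The ubiquitous counterparts stayed closer together. Cox6a1 read 11.01, 11.23 and 11.34 in aged SMC-MR-KO and 11.13, 11.14 and 11.21 in young SMC-MR-KO aorta, a difference of 0.03, next to the -0.25 in MR-intact aorta given above. Cox7a2 read 9.75, 10.05 and 9.91 in aged SMC-MR-KO, 9.61, 9.90, 9.81 and 9.64 in aged MR-intact, 9.63, 9.76 and 9.84 in young SMC-MR-KO and 9.82, 9.89 and 9.82 in young MR-intact aorta. Cox8a read 11.67, 11.84 and 11.86 in aged SMC-MR-KO, 11.58, 11.85, 11.68 and 11.63 in aged MR-intact, 11.70, 11.72 and 11.73 in young SMC-MR-KO and 11.72, 11.73 and 11.72 in young MR-intact aorta. The age difference in SMC-MR-KO aorta was 0.15 for Cox7a2 and 0.07 for Cox8a, where their muscle-type partners gave 0.35 and 0.18; the difference between partners was not tested. Cox4i1 and Cox4i2, the isoforms of subunit 4, fall outside the name rule. Cox4i1 lay between 9.86 and 10.48. Cox4i2, the form known from lung and hypoxia, lay between 6.37 and 6.68, with a SMC-MR-KO minus MR-intact difference in aged aorta of -0.21 (adjusted p = 0.0962, limma).

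In ATP synthase the catalytic beta subunit varied little. Atp5b lay between 12.34 and 12.54 on all arrays, and its difference was within 0.07 of 0 in each of the 4 comparisons of groups. Atp5c1, the central stalk, gave 0.20 ± 0.11 with age in SMC-MR-KO aorta, Atp5a1, the alpha subunit, 0.09, and Atp5f1, a peripheral stalk subunit, 0.28 ± 0.11 without overlap. Atp5k read 8.13, 8.95 and 8.54 in aged SMC-MR-KO, 8.28, 8.35, 8.25 and 8.22 in aged MR-intact, 8.08, 8.33 and 8.34 in young SMC-MR-KO and 8.50, 8.40 and 8.37 in young MR-intact aorta. In young mice its SMC-MR-KO arrays lay below the MR-intact arrays, and in aged mice its lowest and its 2 highest arrays were all SMC-MR-KO.

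Genes that work with these complexes were set beside them, from lists of textbook roles. No member of the following 6 lists passed in any comparison (limma, adjusted p under 0.05). With age in SMC-MR-KO aorta the median was 0.16 over 43 assembly factors, 0.11 over 17 genes of the citric acid cycle and pyruvate dehydrogenase, 0.15 over 15 of fatty acid oxidation, 0.07 over 16 of glycolysis, 0.13 over 11 carriers, channels and uncoupling proteins and 0.03 over 15 regulators of respiratory genes. With the deletion in young aorta the same lists gave -0.09, -0.08, -0.07, -0.10, -0.08 and -0.05, and in aged aorta 0.07, 0.06, 0.12, 0.08, 0.04 and 0.07. The signs of these medians were those of the subunits in each comparison, beside the subunits' own medians of 0.17, -0.10 and 0.13. Single genes of glycolysis were mixed with age in SMC-MR-KO aorta, where 9 of 16 differences were positive (56.25%, against 51.2% of all genes). The assembly factor of complex III listed as 2900010M23Rik, Uqcc2 in RefSeq, had the largest positive difference of these lists with age in SMC-MR-KO aorta (0.61, adjusted p = 0.0629, limma). Ndufaf1, an assembly factor of complex I, gave 0.58 (adjusted p = 0.100, limma), and Etfa, which passes electrons from fatty acid oxidation to the chain, gave the largest of the fatty acid oxidation genes (0.51, adjusted p = 0.122, limma). The largest absolute differences of these lists were negative. They were Ckmt2 of the carrier list (-1.27, adjusted p = 0.390) and Pgam2 (-0.83, adjusted p = 0.438) and Eno3 (-0.78, adjusted p = 0.408) of glycolysis (limma). In each of them every aged array lay below every young array, as in 8.38% of all genes. All 18 skeletal muscle markers also differed in the negative direction here (median -0.92), as did 11 of 12 cardiac muscle markers (median -0.77). Whether Ckmt2, Pgam2 and Eno3 reflect striated muscle in the samples, rather than the roles they are listed under, was not tested.

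Marker genes of brown fat, which is rich in mitochondria, varied with the subunits. The mean of 12 brown adipocyte markers was 9.37, 9.84 and 9.56 in aged SMC-MR-KO, 9.15, 9.66, 9.29 and 9.35 in aged MR-intact, 9.41, 9.46 and 9.31 in young SMC-MR-KO and 9.51, 9.54 and 9.33 in young MR-intact aorta. The highest array in each aged group was replicate 2. The mean of 10 white adipocyte markers was 10.58, 11.05 and 10.84 in aged SMC-MR-KO and 10.47, 10.83, 10.51 and 10.64 in aged MR-intact aorta. It too was lowest on replicate 1 and highest on replicate 2 of each aged group. In young SMC-MR-KO aorta replicate 3 was highest for the white and lowest for the brown markers. No slope was fitted on the white mean, so a trait particular to brown fat was not tested. Within groups, 75 of 76 members had a positive slope on the brown adipocyte mean, against 54% of all genes, and the median slope was 0.43 against 0.04. At an adjusted p under 0.05, 3 members were called higher, with 0.938% of all genes called, and 41 were higher at an unadjusted p under 0.05, as 9.28% of all genes were. The 3 called were Uqcrfs1 (0.96 ± 0.15 SE, adjusted p = 0.0258, limma), Ndufa4 (0.95 ± 0.21, adjusted p = 0.0499, limma) and Ndufb10, an accessory subunit of complex I (0.89 ± 0.18, adjusted p = 0.0444, limma). Without aged SMC-MR-KO replicate 1 or 2, or aged MR-intact replicate 1 or 2, none was called, without aged SMC-MR-KO replicate 3 there were 7, and without most other single arrays 1.

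Smooth muscle markers ran the other way. Their mean was 10.40, 9.61 and 10.33 in aged SMC-MR-KO, 10.73, 10.35, 10.54 and 10.69 in aged MR-intact, 10.42, 10.51 and 10.50 in young SMC-MR-KO and 10.47, 10.50 and 10.54 in young MR-intact aorta. Within groups 70 of 76 members had a negative slope on it, against 55.9% of all genes, with a median of -0.23 against -0.04. The test called 9 members lower, where 4.11% of all genes were called lower. Without aged SMC-MR-KO replicate 2 none was called, without replicate 3 of that group 15 were, and without aged SMC-MR-KO replicate 1, aged MR-intact replicate 1, 2 or 4 between 2 and 5 were. What part the tissue's make-up has in the group differences was not tested.

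**Figure D5:**
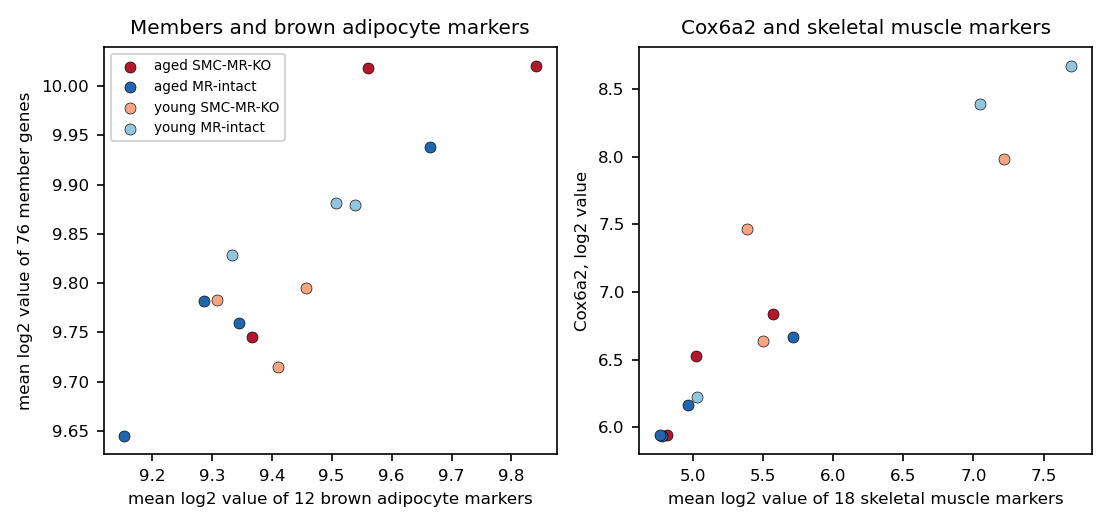
Left, mean log2 value of the 76 members on each array (vertical axis) against the mean of 12 brown adipocyte markers (horizontal axis); right, Cox6a2 against the mean of 18 skeletal muscle markers; 1 point per array, coloured by group. The lowest array on the left is aged MR-intact replicate 1 on both axes and the highest is aged SMC-MR-KO replicate 2, and on the right the 3 arrays with a marker mean above 7 are young.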

How the data were processed

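The values used are the authors' deposited log2 signals of 13 mouse aorta arrays, and a second table gives them rounded. Per the submitters' processing notes they came from RMA, and affy and limma are also named, but the sources used here name neither versions nor a genome build. The authors' own comparison columns were not used here. The number of arrays limits the precision.

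All 21225 genes were fitted without further scaling or filter using limma 3.58.1 (lmFit, then eBayes) under R 4.3.3, with 1 coefficient per group, residual degrees of freedom 9 and prior degrees of freedom 3.411. The 5 contrasts were tested two-sided with Benjamini-Hochberg adjustment over all genes and a threshold of 0.05. Groups came from the genotype and age labels. The code was tested on simulated data. Named were, per contrast, the 4 members with the largest difference in each direction, the most and least variable member of each complex, all Sdh genes, the muscle-type and testis-type complex IV isoforms with counterparts, the subunit genes outside the rule and up to 4 genes per list; members by highest or lowest level are left out, since levels of different genes are not compared. Other members given as examples were chosen after their values were seen. The members and lists were chosen with earlier results of these data known. A difference under 1 SE was treated as having no direction. Slopes on marker means within groups, and their alternatives, were added after seeing the data; a list's own genes were left out of its slope test. Promoters came from the RefSeq table of GRCm38.p6. Alternatives covered scaling, a filter on dim genes, the rounded table, array weights, the prior, the groups fitted, single arrays left out, marker covariates and a replicate block. For 1 member, its own values are not reported here, and it stays in the counts and medians.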

Additional observations from a re-analysis of the deposited data

Results flagged for a closer look

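Of 29 values tested over the 4 aged MR-intact arrays, 2 had 1 array far from the other 3, and chance flags about 1 in 20 such groups. Cox6b1 was 11.74 on aged MR-intact replicate 2, where the gap to its neighbour was 0.852 of the range. Cox6b2 was 5.97 on aged MR-intact replicate 3, with a gap of 0.948 of the range. For Cox8b every SMC-MR-KO array lay above every MR-intact array in aged mice and below in young mice, but the young difference (-0.05 ± 0.06, SE) was under 1 SE and has no direction. The interaction was 0.19, and its test did not pass (adjusted p = 0.609, limma).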

How the results depend on the processing

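The last number of the title is shared by some arrays of different groups. Arrays with the same last number did not deviate together (correlations of -0.0732, 0.0404, 0.0779, -0.234 and -0.191), so it gave no ground for pairing. A pairing by the middle number of the titles, which differs on every array, was not tested. The last numbers 6, 7 and 8 each occur on 1 array. A block on the last number therefore absorbs young SMC-MR-KO replicate 3 and aged SMC-MR-KO replicates 2 and 3. Aged SMC-MR-KO estimates then rest on replicate 1 alone, where 69 of 76 members had their lowest value of that group. With that block the member median was -0.010 for aging in SMC-MR-KO, -0.047 for the knockout in aged aorta and 0.042 for the interaction. For aging in SMC-MR-KO aorta Ndufa5 gave -0.11 and Cox7a2 -0.016. For the knockout in aged aorta Cycs gave -0.91, Ndufa5 -0.23, Cox7a1 -0.045, Cox6a1 -0.10 and Cox7a2 -0.023, and for the interaction Cox8a gave -0.035. With the B lymphocyte and plasma cell mean as a covariate these 3 medians were 0.33, 0.30 and 0.39, and Ndufa4l2 gave 0.13 for aging in SMC-MR-KO. With the brown adipocyte mean, Cycs (-0.0016) and Cox6a1 (-0.017) for the knockout in aged aorta and Cox8a (-0.0020) for the interaction changed sign. Array weights called 1 member for aging in MR-intact aorta, Cox6a2 (-1.84, adjusted p = 0.0494, limma). For aging in SMC-MR-KO aorta 1 member, Ndufa6, was called with a trended robust prior, with the dimmest genes left out, after repeating quantile normalization and without replicates 1 and 2 of aged SMC-MR-KO. The slope on brown adipocyte markers called 9 members after that repeat, and that on smooth muscle markers 14 then and 2 after centring. Leaving out 1 array gave 0 to 1 members for aging in MR-intact, 0 to 7 for aging in SMC-MR-KO, 0 to 1 for the knockout in aged aorta and 0 for the other contrasts, with medians of -0.09 to -0.02, 0.11 to 0.25, 0.08 to 0.22, -0.12 to -0.07 in young aorta and 0.17 to 0.31 for the interaction. The slope counts then ran from 0 to 7 for brown adipocyte, 0 to 1 for skeletal muscle and 0 to 15 for smooth muscle markers. Of 1523 recomputed values of single genes, 1500 kept their side of the threshold without a counted reversal of direction. For 20 of the 61 gene results the difference was under 1 SE, and there only the side of the threshold was compared. Over all genes the count called for aging in SMC-MR-KO was 156, against 1 with its own groups alone and 885 without aged SMC-MR-KO replicate 3. The causes were not tested.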
